A study of Mus musculus with 6 samples.

Results

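Transcripts of the solute carrier (SLC) families that hold most amino acid transporters were measured in mouse kidney. The set held the listed genes whose symbols begin with Slc1a, Slc3a, Slc6a, Slc7a, Slc16a, Slc36a, Slc38a or Slc43a, without Slc6a6 and Slc6a12, and without genes listed at 0 in the third control library. It came to 30 genes of the 7373 in the table. By symbol there were 3 SLC1, 2 SLC3, 6 SLC6, 5 SLC7, 6 SLC16, 1 SLC36, 5 SLC38 and 2 SLC43 genes. Not all encode amino acid transporters. Slc7a6os is named for its position opposite Slc7a6 and encodes no transporter, the 6 SLC16 genes belong to the monocarboxylate transporter family, and Slc43a3 moves purine bases. Slc6a8, on the X chromosome, was among the genes left out as listed at 0 in the third control library.

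The kidneys came from adult male mice of the inbred strain FVB/N. Transgenic mice overexpressed CryAB, a small heat shock protein, carrying the R120G mutation, and their kidneys (n = 3) were taken before heart failure set in. Control mice (n = 3) were matched in age and sex. The deposited columns of all 6 libraries carry the label Pre_IRI. The α-myosin heavy chain promoter restricts the transgene to heart muscle cells, so the kidney is not where it is driven. RNA came from pieces of whole kidney, in which a lower share of cells of one type and less RNA per cell cannot be told apart, and the labels do not number the animals. The p-values therefore cover only sample-to-sample spread, which may be technical.

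Amino acids filtered at the glomerulus are taken back almost completely by the proximal tubule. Sodium-coupled carriers and exchangers in the brush border bring them into the cell, and exchangers and uniporters in the basolateral membrane pass them to the blood. The SLC7 transporters of the set work as light subunits that reach the membrane only when bound to a heavy subunit of SLC3. SLC1, SLC6, SLC36 and SLC38 carriers need no such partner, and several SLC6 and SLC16 carriers need other helper proteins.

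The genes tested took up 23048702 to 47558025 estimated read counts per library, of which these families held between 0.461% and 0.509%. The lowest count of any of the 30 genes was 427. Of the 178 genes listed at 0 in control 3, 176 lie on the X chromosome, and all 178 were left out of the tests. In the genes that were kept, control 3 was the most distant library, at 23.7 on the first principal component against -10.8 to 1.03 for the other libraries. Cryab, the mouse gene of the overexpressed protein, was at 210.1 to 292 CPM in control and 178 to 194 CPM in transgenic kidneys (CPM, the read count scaled to a common library total, with a correction for library composition).

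No transporter family gene differed between transgenic and control kidneys in the edgeR quasi-likelihood test over all 7194 genes tested (0 of 30 at an adjusted p of 0.05, where 0.0139% of all genes were called, namely Ren1 alone). One gene, Slc7a13, had an unadjusted p under 0.05, against 1.82% of all genes (131 of 7194). DESeq2 also called 0 of the 30 and gave 1 such gene, against 163 of all genes. Over all alternatives the count among the 30 genes ran from 0 to 5. It was 0 without control 1 or without transgenic kidney 1, where 100 and 47 of all genes had such a p. It was 5 with limma voom and array weights, where 634 of all genes did. It was 4 without control 2 (597 of all genes). It was 3 with a replicate block (176 of all genes) and without transgenic kidney 3 (118 of all genes). Slc7a13 was also the 1 gene of 30 whose transgenic values lay entirely outside the control values, where this held for 5.98% of all genes (3.02% lower and 2.96% higher in transgenic kidneys). With fewer libraries more genes separate, so such counts were read against all genes. The count was 2 of 30 without control 1 (12.3% of all genes), 10 without control 2 (24.6%) and 3 without control 3 (15.1%). It was 1 without transgenic kidney 1 (10.1%), 3 without transgenic kidney 2 (13.9%) and 3 without transgenic kidney 3 (16.3%). Slc7a13 was among them in each case. The 10 without control 2 were 8 higher and 2 lower in transgenic kidneys. The median log2 fold change was 0.02 over the 30 genes and 0.00 over all genes. Estimates were above 0 for 17 genes and below 0 for 13, and ran from -0.30 for Slc16a12 to 0.24 for Slc6a15.

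The 95% confidence intervals show which differences the data leave possible. They were taken gene by gene, without adjustment for the number of genes. An interval that leaves out 0 therefore restates an unadjusted p under 0.05, which 1.82% of all genes had. For 21 of the 30 genes the interval stayed within 0.5 on the log2 scale in either direction, which is a 1.41-fold difference. For the other 9 it reached further. The widest was that of Slc16a12, from -0.86 to 0.26, and the interval of Slc7a13, from -0.43 to -0.06, was the 1 interval of 30 that did not include 0. Adjusted p was 0.997 for all 30 genes with edgeR.

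**Figure D1:**
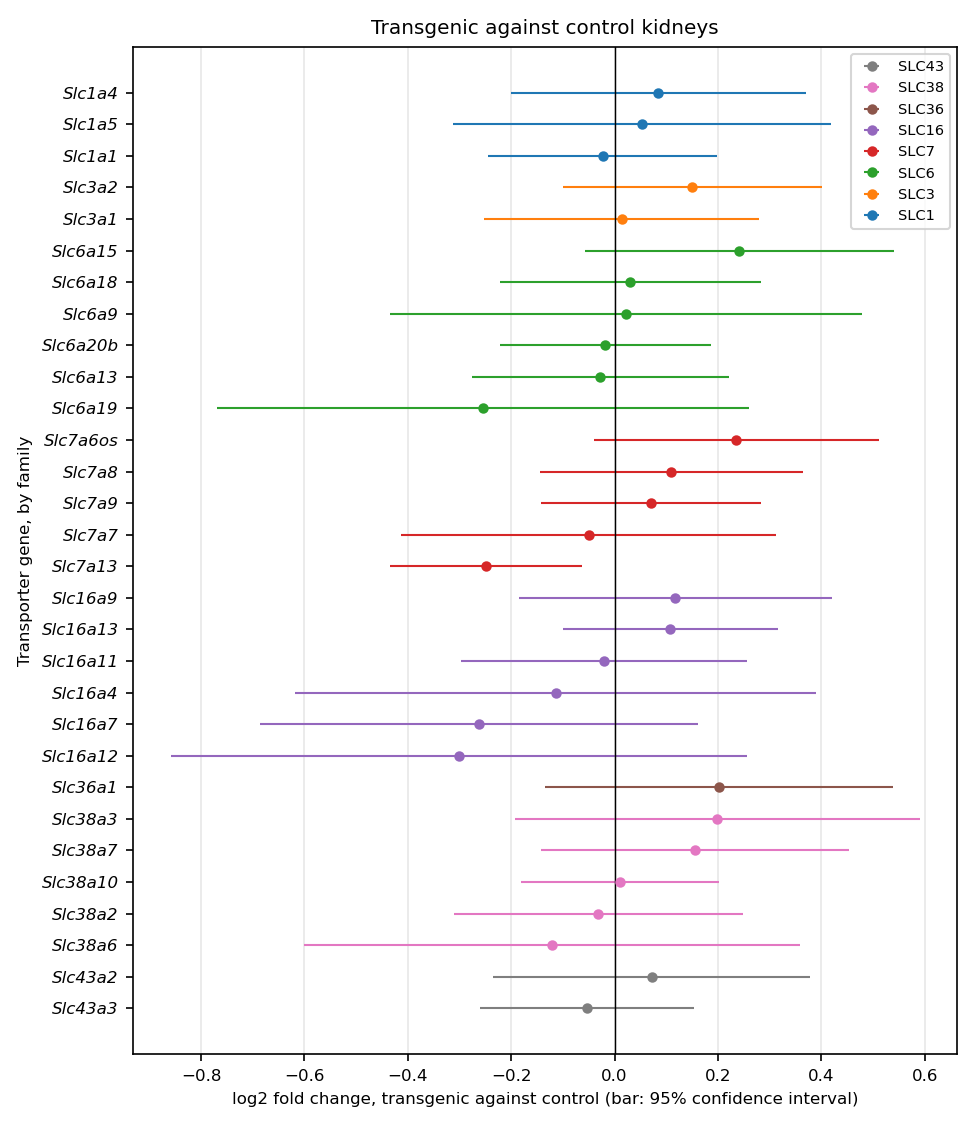
Log2 fold change of each of the 30 genes, transgenic against control kidneys (x axis), grouped by family on the y axis; points are edgeR estimates over 3 and 3 libraries and bars are 95% confidence intervals. The interval of Slc7a13 lies from -0.43 to -0.06, and the other 29 intervals include 0. The intervals are not adjusted for the number of genes.

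Levels were compared between genes as CPM per kilobase of transcript, averaged over the 6 libraries. Order and shares depend on the length used, that of the longest coding transcript tied to RefSeq. In CPM alone Slc6a18 stood highest, at 973 to 1242 CPM against 572 to 736 CPM for Slc7a13. Slc7a13, Slc3a1 and Slc6a18 led at 302, 263 and 259 CPM per kilobase and together made up 49.7% of the summed level. These 3 did not separate, with ranges over libraries of 267 to 344, 228 to 301 and 234 to 299 CPM per kilobase. Slc7a7 and Slc7a9 followed at 99.7 and 98.6 CPM per kilobase, below the range of the first 3 in every library, and also overlapped each other. Then came Slc6a13 at 69.4, Slc3a2 at 61.1, Slc1a1 at 54.7, Slc6a19 at 42.9 and Slc38a6 at 32.3 CPM per kilobase. These 10 genes made up 77.4% of the summed level, and the highest gene was 57.0-fold above the lowest, Slc6a9 at 5.31 CPM per kilobase.

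**Figure D2:**
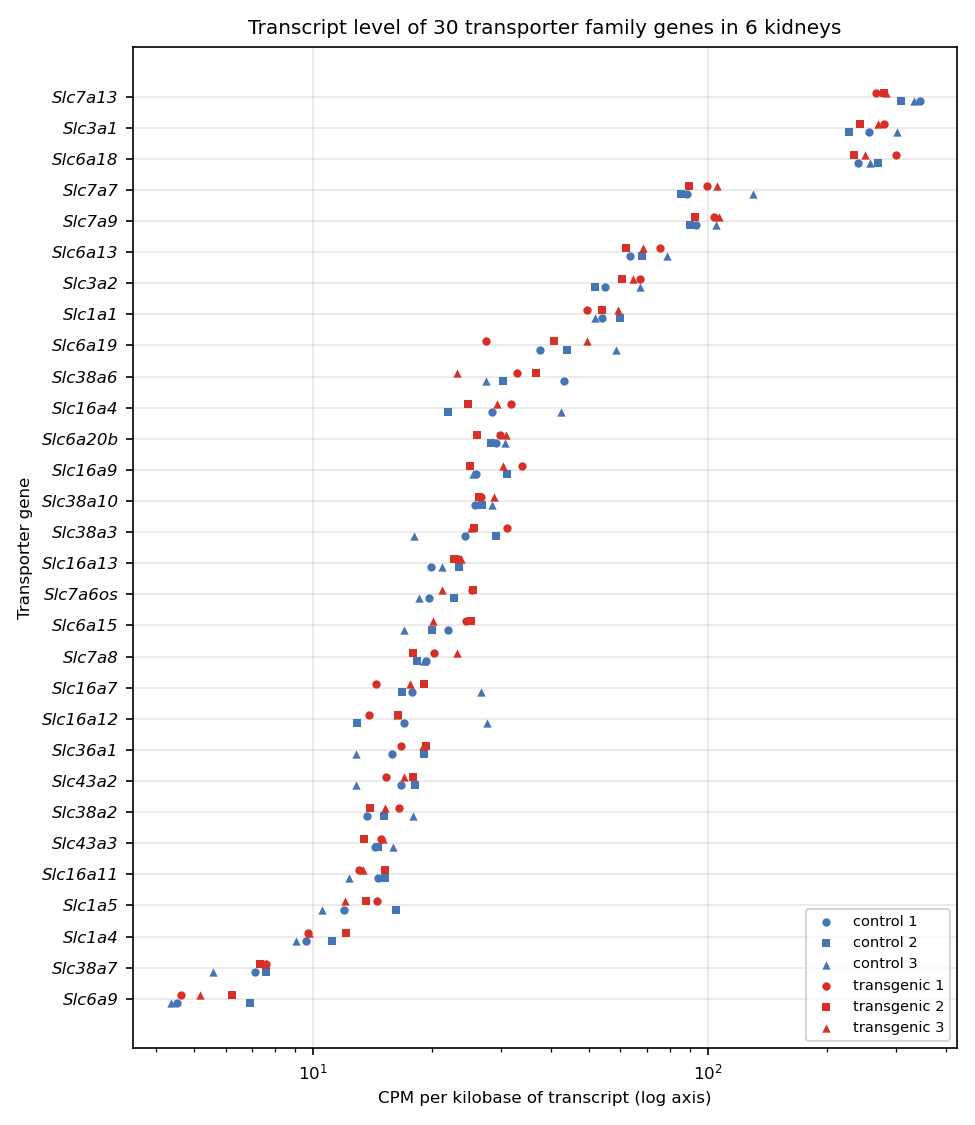
CPM per kilobase of transcript (x axis, logarithmic) of the 30 genes (y axis) in each of the 3 control (blue) and 3 transgenic (red) libraries. Slc7a13, Slc3a1 and Slc6a18 sit between 228 and 344, above all other genes.

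Slc3a1 encodes rBAT, the heavy subunit of the brush border exchanger that takes up cystine and basic amino acids and is defective in cystinuria. It lies on chromosome 17 (85028347 to 85064241, mm10). Its level was 581, 517 and 685 CPM in controls 1, 2 and 3 and 633, 552 and 614 CPM in transgenic kidneys 1, 2 and 3. All 3 transgenic values lay inside the control range. The log2 fold change was 0.01 ± 0.12 (SE), with an interval from -0.25 to 0.28. Exons of Prepl on the opposite strand share 26.5% of the exon bases of Slc3a1, and the counting is not stated to use strand, so reads there could come from either gene. Prepl itself differed by 0.06 on the log2 scale.

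The bases around the start of Slc3a1 are shown with those of Slc1a4 and Slc7a7, because these 3 were the genes of the set that held a searched motif there. RefSeq promoter windows, 250 bases before to 50 after a start (GRCm38.p6, the assembly mm10 names), were at hand for 22 of the 30 genes. These genes had 32 windows, since a gene can have several starts. The set is counted by gene and the background by window, so their shares cannot be compared directly. Searched on both strands, CAAAGTCCA, a site of the proximal tubule regulator HNF4A, was found in Slc3a1 and in 0.475% of all 32851 windows. TTGCATCA, the core of the amino acid response element bound by ATF4, was found in Slc1a4 and Slc7a7 and in 0.895% of all windows. The HNF4A spellings CAAAGTTCA and CAAAGGTCA and the HNF1 consensus site were found in none of the 22 genes, and in 0.390%, 0.478% and 0.399% of all windows. Each line gives 92 bases before the start and 8 after it, 5′ to 3′ on the gene's strand, with the motif in capitals. In Slc3a1 (chr17:85028255-85028354, plus strand) it begins at position -39, in Slc1a4 (chr11:20332706-20332805, minus strand) at -4, and in Slc7a7 (chr14:54417937-54418036, minus strand), in reverse complement, at -1, counted from the start. The start used for Slc7a7 is 1 of several that RefSeq gives and lies inside the gene, whose outer end is at 54420068, whereas those of Slc3a1 and Slc1a4 are the outer ends. A match is a stretch of letters, not a measured site.
Slc3a1: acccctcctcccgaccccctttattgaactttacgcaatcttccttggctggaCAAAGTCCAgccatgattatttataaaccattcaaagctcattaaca
Slc1a4: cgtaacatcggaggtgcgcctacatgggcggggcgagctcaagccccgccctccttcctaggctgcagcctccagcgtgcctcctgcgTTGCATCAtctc
Slc7a7: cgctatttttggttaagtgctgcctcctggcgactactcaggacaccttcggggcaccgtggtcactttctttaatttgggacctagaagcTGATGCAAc

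Slc7a9 encodes b0,+AT, the light subunit that joins rBAT in the early proximal tubule. It was at 181, 175 and 204 CPM in control and 201, 180.0 and 207 CPM in transgenic kidneys. The groups overlapped, and the means of 187 ± 15.3 and 196 ± 14.2 CPM (SD, n = 3 each) differed by 0.07 ± 0.09 (SE) on the log2 scale.

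Slc7a13 encodes AGT1, the light subunit that joins rBAT in the late straight segment and carries aspartate, glutamate and cystine. It lies on chromosome 4 (19818727 to 19842213, mm10), and no exon of another annotated gene overlaps it. Its level was 736, 661 and 712 CPM in controls 1, 2 and 3 and 572, 599 and 605 CPM in transgenic kidneys 1, 2 and 3. Every transgenic value was below every control value. The means were 703 ± 38.3 CPM in control and 592 ± 17.6 CPM in transgenic kidneys (SD, n = 3 each), which is 15.8% lower by the fitted fold (log2 fold change -0.25 ± 0.08, SE). It ranked 23 of 7194 genes by p-value (edgeR quasi-likelihood test, unadjusted p = 0.0147) and did not pass the adjusted threshold. Leaving out any 1 library kept its estimate between -0.21 and -0.29. Over the alternatives to the edgeR test its adjusted p lay between 0.368, with limma voom and array weights, and 0.9999, and its unadjusted p was above 0.05 without control 1 or without transgenic kidney 1.

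Markers of the late straight segment, where Slc7a13 is made, are the measure closest to that difference. All 8 genes of a list of such markers were measured, 4 above and 4 below 0, with a median log2 fold change of -0.04, and in none of them were the groups apart. Slc22a30 and Slco1a1, organic anion transporter genes, were at -0.26 and -0.23, whereas Cyp7b1, Slc22a7 and Slc22a19 were at 0.05, 0.02 and 0.02, Acy3 was at 0.08, Cyp4b1 at -0.13 and Kap, an androgen-dependent transcript that dominates the sum, was at -0.10. The summed level of the list was 55948 to 65600 CPM in control and 54857 to 59317 CPM in transgenic kidneys. What part the makeup of the samples has in the lower Slc7a13 value was not tested.

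Ratios between subunit genes, whether partners or not, were taken per kilobase within each library and do not depend on library size. Slc7a13 stood to Slc7a9, the other partner of rBAT, at 3.68, 3.42 and 3.16 in control and 2.58, 3.01 and 2.65 in transgenic kidneys. All 3 transgenic ratios were below all 3 control ratios, with means of 2.75 ± 0.235 and 3.42 ± 0.261 (SD, n = 3 each). The exact two-sided permutation p was 0.1, the smallest that 3 against 3 can give, and 0.35 after Benjamini-Hochberg adjustment over 7 ratios. This ratio reuses the Slc7a13 values, whose groups were already apart, so it is not separate evidence. The ratio of Slc3a1 to Slc3a2, the heavy subunits of the brush border and of the basolateral membrane, was also lower in all 3, at 4.66, 4.40 and 4.49 in control and 4.15, 3.999 and 4.18 in transgenic kidneys (exact permutation p = 0.1, adjusted 0.35). The ratio of Slc7a9 to Slc3a1 was 0.370 ± 0.0240 in control and 0.383 ± 0.0116 in transgenic kidneys (SD, n = 3 each), with overlap, and Slc7a13 to Slc3a1 overlapped too, at 1.10 to 1.36 against 0.958 to 1.15.

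Slc3a2 encodes 4F2hc, the heavy subunit of basolateral exchangers, and lies on chromosome 19 (8706882 to 8723369, mm10). It was at 154, 145 and 189 CPM in control and 189, 171 and 182 CPM in transgenic kidneys. Controls 1 and 2 lay below all transgenic kidneys, and control 3 lay close to the highest of them. The difference was 0.15 ± 0.11 (SE) on the log2 scale, 0.27 without control 3 and 0.08 without control 2.

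Slc7a7 encodes y+LAT1, the basolateral exporter of basic amino acids that is defective in lysinuric protein intolerance. It was at 202, 195 and 296 CPM in control and 226, 204 and 239.8 CPM in transgenic kidneys. Control 3 was the highest of the 6 libraries and the other controls were the lowest. The log2 fold change was -0.05 ± 0.16 (SE), 0.17 without control 3 and -0.16 without control 2. Exons of Oxa1l on the opposite strand share 6.998% of the exon bases of Slc7a7.

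Slc7a8 encodes LAT2, the basolateral exchanger of neutral amino acids. It was at 79.0, 74.9 and 77.8 CPM in control and 82.5, 73.1 and 94.4 CPM in transgenic kidneys. Transgenic kidney 3 stood highest, and the log2 fold change was 0.11 ± 0.11 (SE). The ratio of Slc7a7 to Slc3a2 per kilobase was 1.74 ± 0.172 in control and 1.52 ± 0.0871 in transgenic kidneys (SD, n = 3 each; exact permutation p = 0.2, adjusted 0.35), with overlap. That of Slc7a8 to Slc3a2 was 0.331 ± 0.0406 and 0.317 ± 0.0343 (SD, n = 3 each).

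**Figure D3:**
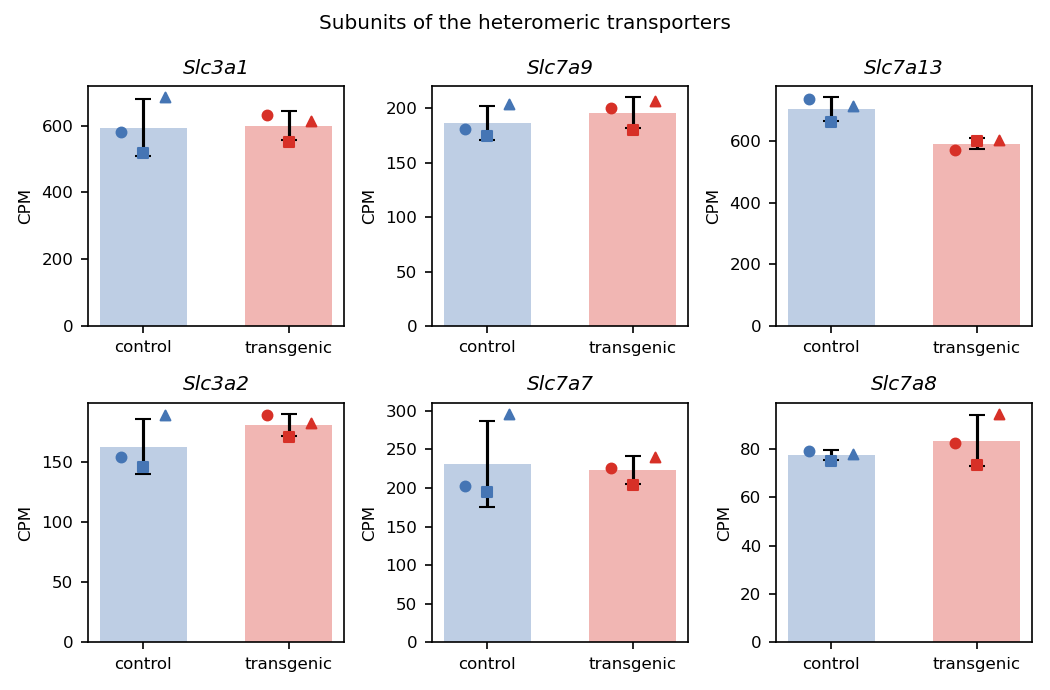
CPM (y axis, from 0) of the heavy subunit genes Slc3a1 and Slc3a2 and the light subunit genes that bind them, in control and transgenic kidneys; bars are means of 3 libraries, error bars are SD, and circles, squares and triangles are libraries 1, 2 and 3. Slc7a13 runs from 572 to 605 in transgenic and from 661 to 736 in control kidneys, and the groups of the other 5 genes overlap.

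Slc7a6os, counted with SLC7 by its symbol only, was at 24.5, 28.3 and 23.2 CPM in control and 31.4, 31.7 and 26.4 CPM in transgenic kidneys. Control 2 lay above transgenic kidney 3, so the groups overlapped, and the log2 fold change was 0.24 ± 0.12 (SE).

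Slc6a18 and Slc6a19 lie next to each other on chromosome 13 (73661750 to 73678023 and 73679745 to 73700780, mm10), 1721 bases apart. Slc6a19 encodes B0AT1, the main brush border carrier of neutral amino acids, which is defective in Hartnup disorder, and Slc6a18 encodes B0AT3, which carries glycine and alanine. Slc6a18 was at 997, 1117 and 1071 CPM in control and 1242, 973 and 1039 CPM in transgenic kidneys. The transgenic values lay on both sides of the control range, and the log2 fold change was 0.03 ± 0.11 (SE).

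Slc6a19 was at 148, 173 and 231 CPM in control and 108, 160.0 and 195 CPM in transgenic kidneys. It varied 2.14-fold between the highest and the lowest library, where the median gene of the whole table varied 1.29-fold. Transgenic kidney 1 was the lowest of the 6 libraries in Slc6a19 and the highest in Slc6a18. The per-kilobase ratio of Slc6a19 to Slc6a18 was therefore 0.0915 in transgenic kidney 1 and 0.156 to 0.227 in the other 5 libraries. For Slc6a19 the log2 fold change was -0.25 ± 0.23 (SE), and it depended on single libraries in both directions. It was -0.05 without transgenic kidney 1 and -0.06 without control 3, but -0.46 without transgenic kidney 3 and -0.39 without control 1. Both carriers depend in the kidney on collectrin, whose X-linked gene is not analysed here.

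Slc6a20b, a mouse relative of the brush border carrier of imino acids such as proline, was at 184, 178 and 193 CPM in control and 188, 164 and 195 CPM in transgenic kidneys, with a log2 fold change of -0.02 ± 0.09 (SE). Its counts are uncertain, since reads can be shared with the close copy Slc6a20a, and exons of Sacm1l on the opposite strand share 21.1% of its exon bases. Sacm1l differed by -0.17 on the log2 scale.

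The other 3 SLC6 genes also had overlapping groups. Slc6a13, which encodes the basolateral GABA and taurine carrier GAT2, was at 142, 152 and 176 CPM in control and 169, 139 and 153 CPM in transgenic kidneys (log2 fold change -0.03 ± 0.11, SE). Slc6a15, a carrier of branched-chain amino acids and proline, was at 79.3, 72.1 and 61.2 CPM in control and 87.9, 90.8 and 72.5 CPM in transgenic kidneys. Its lowest transgenic value lay between the control values, and the log2 fold change of 0.24 ± 0.13 (SE) had an interval from -0.06 to 0.54. Slc6a9, the glycine carrier GlyT1, was the lowest of the 30 genes per kilobase, at 15.1 to 24.0 CPM in control and 16.1 to 21.7 CPM in transgenic kidneys (0.02 ± 0.20, SE). Exons of Ccdc24 on the opposite strand share 27.8% of its exon bases.

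The SLC1 genes showed little difference in either direction. Slc1a1 encodes EAAT3, the brush border carrier of glutamate and aspartate, and was at 205, 227 and 196 CPM in control and 188, 205 and 225 CPM in transgenic kidneys. The groups covered nearly the same range, and the log2 fold change was -0.02 ± 0.10 (SE). Exons of 4430402I18Rik on the opposite strand share 31.9% of its exon bases. Slc1a4 and Slc1a5, the neutral amino acid exchangers ASCT1 and ASCT2, were at 35.5 to 43.9 and 29.1 to 44.7 CPM in control and 38.1 to 47.6 and 33.2 to 40.02 CPM in transgenic kidneys. Their log2 fold changes were 0.08 ± 0.12 and 0.05 ± 0.16 (SE).

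SLC38 genes encode carriers of glutamine and other small neutral amino acids. Slc38a3 encodes SNAT3, which brings glutamine into tubule cells for ammonia formation. It was at 62.7, 74.9 and 46.7 CPM in control and 80.1, 66.2 and 65.0 CPM in transgenic kidneys. Control 3 stood lowest and transgenic kidney 1 highest. Its log2 fold change was 0.20 ± 0.17 (SE), 0.03 without control 3 and 0.37 without control 2.

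Slc38a6 was at 131, 91.8 and 83.1 CPM in control and 99.6, 111 and 70.3 CPM in transgenic kidneys. It varied 1.86-fold between libraries, with control 1 highest and transgenic kidney 3 lowest, and its log2 fold change was -0.12 ± 0.21 (SE). With limma voom and array weights it was -0.44. Slc38a7, a lysosomal exporter of glutamine and asparagine, was at 23.7, 25.3 and 18.6 CPM in control and 25.4, 24.5 and 25.4 CPM in transgenic kidneys (0.16 ± 0.13, SE, with 0.03 without control 3 and 0.25 without control 2). Slc38a2, the widely expressed SNAT2, was at 63.8 to 83.4 CPM in control and 65.1 to 76.8 CPM in transgenic kidneys (-0.03 ± 0.12, SE). Slc38a10 varied least between the 6 libraries of all 30 genes, 1.12-fold, from 118 to 131 CPM, with a log2 fold change of 0.01 ± 0.08 (SE).

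Slc36a1 encodes PAT1, a proton-coupled carrier of small amino acids in lysosomes and the plasma membrane. It was at 83.4, 101 and 67.6 CPM in control and 87.8, 102 and 99.8 CPM in transgenic kidneys. Control 3 was again the lowest, and the log2 fold change of 0.20 ± 0.15 (SE) was 0.07 without it and 0.35 without control 2. Slc43a2, the basolateral uniporter LAT4, was at 119, 129.5 and 91.99 CPM in control and 109, 128 and 121 CPM in transgenic kidneys (0.07 ± 0.13, SE), at -0.06 without control 3 and 0.18 without control 2. Slc43a3 was at 37.2 to 41.1 CPM in control and 34.8 to 38.7 CPM in transgenic kidneys (-0.05 ± 0.09, SE).

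The 6 SLC16 genes held the lowest estimate of the set and varied most between libraries, with a median 1.60-fold between highest and lowest library against 1.35-fold for all 30 genes. Slc16a12, a creatine carrier, was at 68.7, 52.2 and 112 CPM in control and 56.2, 66.4 and 66.2 CPM in transgenic kidneys. Controls 1 and 3 lay above all transgenic values, and control 2 lay below them. The estimate of -0.30 ± 0.24 (SE) on the log2 scale was 0.06 without control 3 and -0.52 without control 2.

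Control 3 was also the highest library for Slc16a7, the monocarboxylate carrier MCT2, and for Slc16a4. Slc16a7 was at 43.0, 40.7 and 64.4 CPM in control and 34.9, 46.1 and 42.6 CPM in transgenic kidneys (-0.26 ± 0.19, SE, with -0.02 without control 3 and -0.39 without control 2). Slc16a4 was at 63.9, 49.3 and 95.2 CPM in control and 71.5, 55.5 and 65.7 CPM in transgenic kidneys (-0.11 ± 0.22, SE, with 0.18 without control 3 and -0.31 without control 2). Slc16a9, a carnitine carrier, was at 95.3 to 116 CPM in control and 94.0 to 127 CPM in transgenic kidneys (0.12 ± 0.13, SE). Slc16a11 and Slc16a13 lie 374 bases apart on chromosome 11. They were at 21.6 to 26.7 and 50.4 to 59.4 CPM in control and 22.9 to 26.6 and 57.6 to 59.8 CPM in transgenic kidneys, with log2 fold changes of -0.02 ± 0.12 and 0.11 ± 0.09 (SE).

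Control 3 was the highest library for 9 and the lowest for 10 of the 30 genes, and over all genes for 34.8% and 32.6%. It lay more than 0.5 on the log2 scale from the mean of controls 1 and 2 in 6 of the 30 genes, against 12.03% of all genes. These were Slc16a12 (0.89), Slc16a4 (0.76), Slc16a7 (0.62), Slc7a7 (0.57) and Slc6a19 (0.53) above and Slc38a3 (-0.55) below. Genes of lower GC content tended to lie higher in control 3. Spearman's rho between this difference and the GC content of the transcript was -0.47 over the 30 genes and -0.56 over 7006 genes, all read from the same 3 libraries, and its part in the fold changes was not tested.

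**Figure D4:**
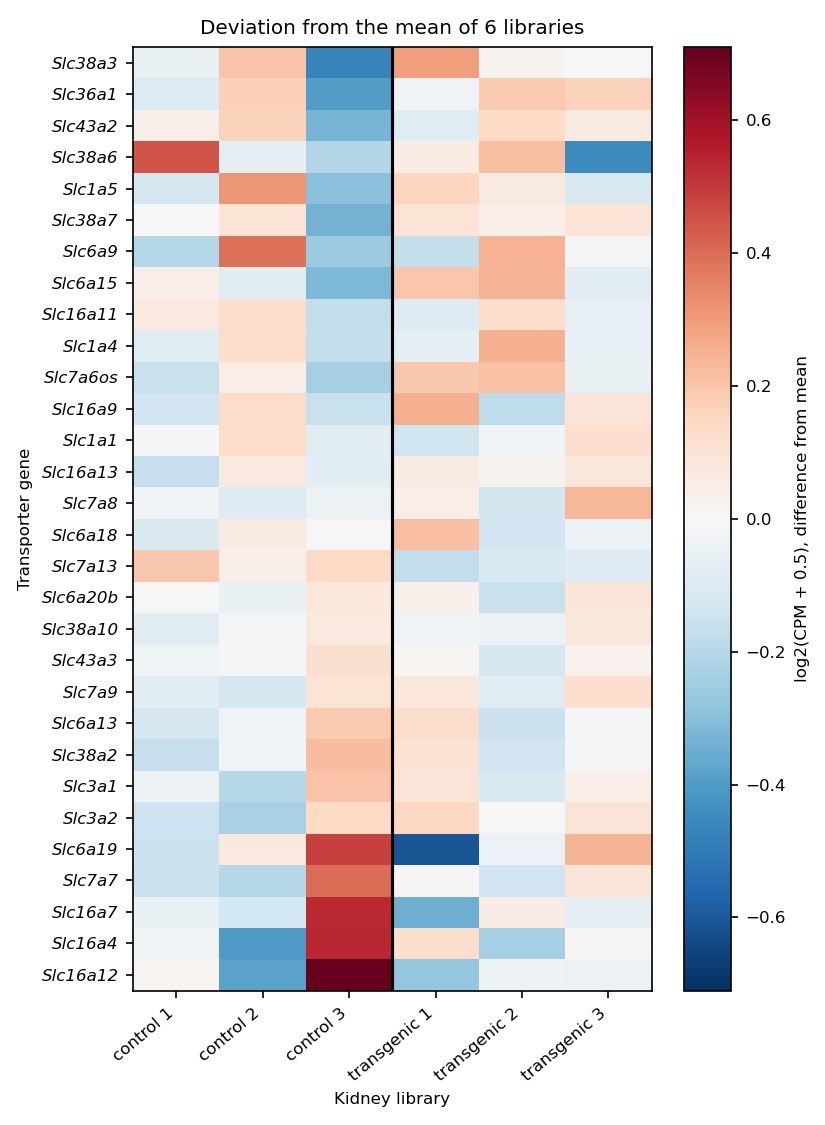
Difference of each library (x axis) from the mean of the 6 libraries in log2(CPM + 0.5) (color, red above and blue below the mean) for the 30 genes (y axis), ordered by the difference of control 3 from controls 1 and 2. Slc16a12 at 0.89 and Slc38a3 at -0.55 mark the ends of that order.

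Genes that act with these carriers were read from 5 lists. No gene of any list passed the test over all genes. In the largest, amino acid breakdown and ammonia formation, 43 of 48 genes were measured, 13 above and 30 below 0, with a median log2 fold change of -0.04. The groups did not overlap in 7 of the 43 (16.3%, against 5.98% of all genes), 4 lower and 3 higher in transgenic kidneys, where 3.02% and 2.96% of all genes were. Among those lower, Aadat, of tryptophan and lysine breakdown, was at -0.20 ± 0.08 and Bckdhb, of branched-chain amino acid breakdown, at -0.27 ± 0.10 (SE). Those higher were Uroc1, the urocanase of histidine breakdown, at 22.9, 20.5 and 20.8 CPM in control and 27.5, 25.6 and 30.8 CPM in transgenic kidneys (0.39 ± 0.11, SE), Prodh2 (0.19 ± 0.09) and Hgd (0.10 ± 0.08).

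In the list of the amino acid stress response, which the kinase GCN2 and the factor ATF4 drive when amino acids are short, 25 of 33 genes were measured, with a median of 0.03. The groups were apart in 2 of them, the transfer RNA synthetase genes Aars (0.07) and Mars (0.14), both higher in transgenic kidneys, a share of 8.0% against 5.98% of all genes. Of the brush border peptidases and peptide carriers 12 of 16 were measured, with a median of -0.03. Dpp4, a peptidase that frees dipeptides, was the 1 gene there with groups apart (8.33% of the list, against 5.98% of all genes), at 51.9 ± 7.41 CPM in control and 45.7 ± 1.13 CPM in transgenic kidneys (SD, n = 3 each). The groups overlapped in all 21 measured genes of lysosomal amino acid sensing by mTORC1, with a median of -0.02. They also overlapped in all 7 measured accessory protein genes (median -0.04), among them Bsg, the partner of monocarboxylate carriers, at -0.04 ± 0.09 (SE), and Emb, the partner of MCT2, at -0.34 ± 0.14 (SE).

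**Figure D5:**
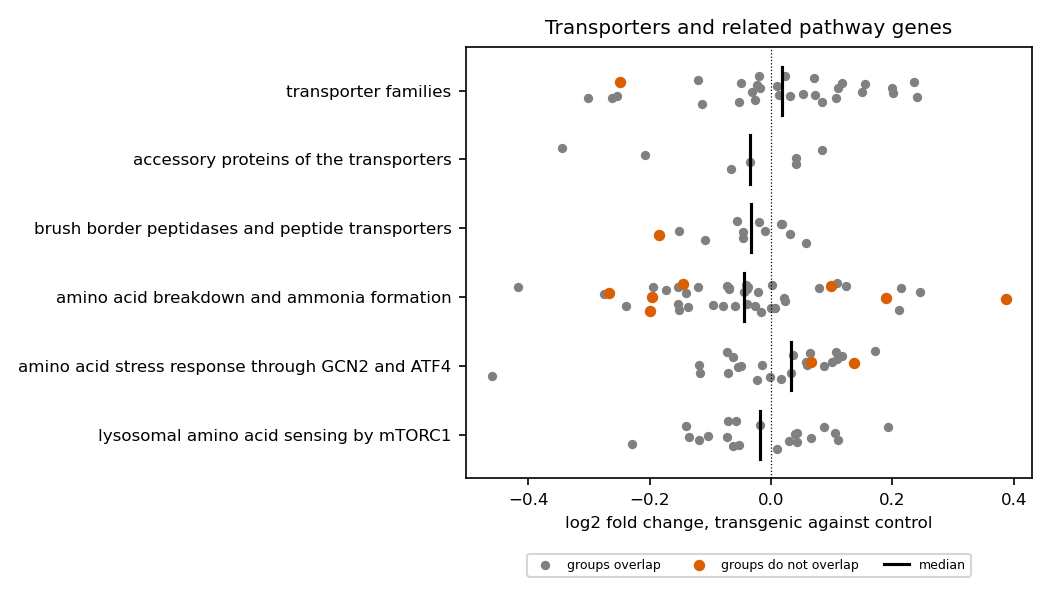
Log2 fold change, transgenic against control (x axis), of the 30 transporter family genes and of the measured genes of 5 pathway lists (y axis); grey points are genes whose groups overlap, orange points genes whose groups do not, and black lines medians. The medians lie between -0.04 and 0.03.

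Kidney markers fitted the labelled tissue. All 7 markers of the early proximal tubule were measured, among them Slc34a1 at 6694 to 8030 CPM over the 6 libraries, and none of 8 heart and skeletal muscle markers is among the listed genes. The early proximal tubule list had a median log2 fold change of -0.15, with overlap in all 7 genes. Its summed level, which Slc34a1 dominates, was 10653 to 10698 CPM in control and 10132 to 11472 CPM in transgenic kidneys. Among markers of cells outside the tubule, the groups were apart in 3 of 5 endothelial genes, 2 higher and 1 lower in transgenic kidneys. That was 60.0%, against 5.98% of all genes, with a median of 0.05. The groups were apart in none of 6 macrophage genes (median -0.17), 3 red blood cell genes (-0.32) or 3 adipocyte genes (-0.14). These medians do not show the spread of single genes. The adipocyte gene Cfd was at 0.221, 77.2 and 0.0430 CPM in control and 28.7, 6.87 and 18.3 CPM in transgenic kidneys. The red blood cell gene Hba-a2 was at 14.2, 12.7 and 0.258 CPM in control and 1.05, 2.06 and 1.24 CPM in transgenic kidneys. Slc5a2, the glucose carrier of the early tubule, was lowest in transgenic kidney 1, as Slc6a19 was, at 357 CPM against 419 to 633 CPM in the other 5 libraries. The other markers of that list were not lowest in that library. Lrp2 and Cubn were highest in transgenic kidney 1, at 1502 and 472 CPM. Slc5a12, Slc4a4 and Gatm were lowest in transgenic kidney 2, and Slc34a1 in control 3. In transgenic kidney 1, however, Slc5a12 was at 164 CPM, below the controls at 184 to 244 CPM. Slc34a1 was at 7015 CPM there, and only control 3 was lower.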

How the data were processed

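Libraries of 3 control and 3 transgenic kidneys were grouped by their genotype labels. Per the submitters' processing notes the build was mm10. The aligner is not given in the sources used here, nor is the counter. Per the file headers, the authors kept genes whose value called NRPKM was between 5.0 and 84233.281 in at least 2 of 6 samples, so genes of these families outside that range are not analysed here. The deposited raw columns hold estimated counts. The deposited normalized columns hold log2 values and served 1 alternative. Of 24 columns of per-sample values, 12 match no sample here and were not used.

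Estimated counts were rounded. Rows at 0 in control 3 were left out, filterByExpr removed 1 gene, and 7194 genes were tested with the edgeR quasi-likelihood test (edgeR 4.0.16, R 4.3.3) after TMM normalization, with group as the only term, two-sided, adjusted by the Benjamini-Hochberg method over all genes at 0.05. The SE is the log2 fold change over the square root of F. Ratios were compared by exact permutation (scipy 1.17.1). Transcript lengths are those of the longest GENCODE M21 coding transcript tied to RefSeq. The test was tried on simulated counts. Every gene of the set is named, and others by rule: list genes without overlap, at most 3 in each direction by p-value. Some items that this rule or the choice of genes would name are not reported here. Markers, Emb, Bsg and genes that share exons were named after their values were seen. The genes and lists were chosen with earlier results of these data known. Alternatives were DESeq2 (1.42.0) and its size factors, other filters, limma (3.58.1), zero rows kept, a replicate block, a robust prior and leaving out each library.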

Additional observations from a re-analysis of the deposited data

How the results depend on the processing

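Of the 30 genes, 0 passed an adjusted p of 0.05 in edgeR and under all 15 alternatives, and the sign of the log2 fold change held under all 15 for 13 genes, Slc7a13 among them. The count of called genes over the whole table was 1 (Ren1), 2 with DESeq2, 0 with the rows at 0 in control 3 kept, 0 with limma on the deposited log2 values, and 0 to 2 without 1 library. The median over the 30 genes was 0.02, 0.10 with limma voom and array weights, and 0.00 to 0.04 without 1 library. Array weights also gave the other sign for Slc43a3 (0.00625), Slc16a4 (0.0585), Slc6a13 (0.105), Slc6a20b (0.00412), Slc43a2 (-0.0221), Slc7a7 (0.136) and Slc38a2 (0.134). The cause of these differences was not tested. Genes of the set whose groups did not overlap numbered 1, and 1 to 10 without 1 library. The 10 came without control 2, where 24.6% of all genes did so, against 15.1% and 3 of 30 without control 3.

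Without 1 library the log2 fold change took both signs for these genes. It ran from -0.11 to 0.042 for Slc16a11, -0.52 to 0.060 for Slc16a12, -0.31 to 0.18 for Slc16a4, -0.092 to 0.039 for Slc1a1, -0.028 to 0.18 for Slc1a4, -0.077 to 0.25 for Slc1a5 and -0.030 to 0.050 for Slc38a10. It ran from -0.12 to 0.081 for Slc38a2, -0.26 to 0.10 for Slc38a6, -0.077 to 0.13 for Slc3a1, -0.060 to 0.18 for Slc43a2 and -0.098 to 0.064 for Slc6a13. It ran from -0.077 to 0.10 for Slc6a18, -0.068 to 0.052 for Slc6a20b, -0.10 to 0.27 for Slc6a9 and -0.16 to 0.17 for Slc7a7. Of the genes that kept their sign, Slc38a3 ran from 0.033 to 0.37, Slc36a1 from 0.067 to 0.35, Slc16a7 from -0.39 to -0.023, Slc6a19 from -0.46 to -0.050, Slc3a2 from 0.075 to 0.27, Slc38a7 from 0.033 to 0.25, Slc16a9 from 0.013 to 0.23 and Slc7a8 from 0.011 to 0.20.

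Whether the replicate numbers of the titles pair the samples cannot be settled with 3 libraries in each group. Deviations of same-numbered libraries correlated at 0.00468, 0.02 and 0.34, and control 1 went closest with transgenic kidney 2, at 0.41. With the replicate block 1 gene was called over the whole table, 0 of the 30 were, and their median was 0.02. The lowest count of the 30 genes in any library was 427, and the biological coefficient of variation over all genes was 0.133 in edgeR.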
